A study of Mus musculus with 10 samples.

Results

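A set of 10 genes of fast-twitch skeletal muscle fibres was examined, Myh1, Myh2, Myh4, Myh8, Acta1, Ckm, Tnnt3, Tnnc2, Mylpf and Tnni2, in RNA-seq libraries of mouse testis, an organ without skeletal muscle of its own. The genes were chosen with the difference between genotypes in these data known, so that difference is described here and not tested. All 10 were found among the 55421 genes of the count files. The question was whether they move together from library to library, as transcripts from varying amounts of muscle of the same make-up would.

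The RNA-seq compared 3 wild type (Mov10+/+) and 3 Mov10-/- libraries, each from 1 pair of testes at postnatal day 21 (P21). MOV10 is an RNA helicase. The Mov10-/- mice were global knockouts, made by recombining a floxed allele with Actb-Cre, which the β-actin promoter drives in all tissues. The mice were of mixed genetic background. The labels number the wild type libraries 1, 2 and 3 and the Mov10-/- libraries 2, 3 and 4. Another 4 libraries held MOV10 CLIP-seq, RNA crosslinked to MOV10 and immunoprecipitated from wild type P21 testes.

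The RNA-seq libraries held 5083407 to 9230540 reads on genes, and 57.2% of reads in Mov10-/- replicate 3 did not align, against 26.5% to 35.9% in the others. Values are CPM, read counts scaled to the reads on genes with TMM factors, so that 1 read stood for about 0.108 to 0.197 CPM before scaling. Mov10 itself was at 29.5, 25.7 and 26.7 CPM with the knockout label and at 113, 98.1 and 119 CPM with the wild type label, so that the level of the targeted gene did not go against any of the 6 labels. The quasi-likelihood test of edgeR was run on 20240 genes, and a gene was called when it changed more than 2-fold with an adjusted p below 0.05. It called 1 gene, or 0.00494%, which was Mov10 (adjusted p = 0.0055).

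A fast fibre contracts as myosin heads pull on thin filaments of actin. Myh1, Myh2 and Myh4 encode the myosin heavy chains of adult fast fibres (types IIx, IIa and IIb), Myh8 encodes the perinatal heavy chain, and Mylpf encodes the fast regulatory light chain bound to them. Acta1 encodes skeletal α-actin, the core of the thin filament, on which Tnnt3, Tnni2 and Tnnc2 (fast troponins T, I and C) form the calcium switch. Ckm encodes the muscle creatine kinase, which restores ATP from phosphocreatine. Many of these genes are abundant transcripts in fast muscle, but the heavy chains differ by fibre type and by age. The ratio of the heavy chains to one another and to the other genes can therefore differ between muscles.

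The genes lie in a few clusters of the mm10 genome. The 4 heavy chain genes stand in a row on the plus strand of chromosome 11, Myh2 at chr11:67171027-67197517, Myh1 at chr11:67200052-67224575, Myh4 at chr11:67238029-67260446 and Myh8 at chr11:67277124-67308634. Tnni2 (chr7:142441808-142444410) and Tnnt3 (chr7:142498836-142516009) are near each other on the plus strand of chromosome 7, which also holds Mylpf (chr7:127208890-127214298) and Ckm (chr7:19404776-19422841). Acta1 (chr8:123891769-123894751) and Tnnc2 (chr2:164777161-164779967) lie on the minus strand of 2 other chromosomes. These intervals are whole genes, and the reads were counted over their exons.

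Promoter sequence is shown for 4 genes whose levels behaved differently from one another in these libraries. Each line gives the 150 bases that end just before the transcript start annotated by RefSeq (GRCm38.p6), 5′ to 3′ on the strand of the gene, and none of these bases lies in an annotated exon. The stretch of Mylpf lies inside the whole-gene interval given above, because its RefSeq start does. Capitals mark a CArG box, a MEF2 site or a TATA box (TATAAA), searched on both strands.
Acta1, chr8:123894776-123894925, minus strand: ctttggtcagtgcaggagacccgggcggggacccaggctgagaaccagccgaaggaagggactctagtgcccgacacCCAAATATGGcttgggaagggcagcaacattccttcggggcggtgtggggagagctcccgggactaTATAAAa
Myh4, chr11:67237662-67237811, plus strand: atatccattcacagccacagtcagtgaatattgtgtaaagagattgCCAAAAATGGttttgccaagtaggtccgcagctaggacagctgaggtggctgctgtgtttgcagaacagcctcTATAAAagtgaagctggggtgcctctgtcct
Myh8, chr11:67276974-67277123, plus strand: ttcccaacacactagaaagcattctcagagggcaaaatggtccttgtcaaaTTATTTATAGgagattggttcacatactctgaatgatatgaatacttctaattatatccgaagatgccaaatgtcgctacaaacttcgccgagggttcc
Mylpf, chr7:127211458-127211607, plus strand: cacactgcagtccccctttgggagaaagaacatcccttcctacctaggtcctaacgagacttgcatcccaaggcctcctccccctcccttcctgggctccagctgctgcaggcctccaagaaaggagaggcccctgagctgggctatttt

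The CArG box, the site of serum response factor, was found in Acta1 and Myh4 among the 8 members with a RefSeq window of 250 bases. It was present in 1.47% of 32851 such windows of all genes. A MEF2 site, bound by a family of muscle and nerve factors, was found in Myh1, Myh4 and Myh8 with the same letters, TTATTTATAG, against 2.92% of all windows. In each of these the match overlaps a TATA box match on the other strand. A TATA box match in either orientation was present in 12.4% of all windows. The E-box of the myogenic factors (CANNTG) was present in 66.2% of all windows and in 6 of the 8 members, so that it separated little. Mylpf held an E-box and none of the other 3 motifs. A match is a stretch of letters and was not tested as a site.

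All 10 genes were expressed at a low level, but their order by level per length was not that of their changes. Per kilobase of exon (RPKM), Mylpf was highest at 5.95 ± 1.01 (SD over 6 libraries), above Tnnc2 at 4.13 ± 1.53 in all 6 libraries. Acta1 followed at 3.62 ± 6.65, a mean that 1 library set, and Myh1 at 2.42 ± 0.847. Acta1 did not differ from either neighbour in this order beyond its spread. Myh8 (0.658), Tnni2 (0.569), Tnnt3 (0.421), Ckm (0.419) and Myh4 (0.364) came next, and no neighbours among these 5 differed beyond the larger SD. Myh2 was lowest at 0.152 ± 0.124 RPKM and below Myh4 in all 6 libraries. The length of Myh8 counts all annotated exons (11772 bases, against 6149 for its main transcript), which lowers its RPKM.

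The 10 genes together gave 90.0, 48.7 and 44.5 CPM in Mov10-/- replicates 2, 3 and 4 and 33.9, 19.4 and 29.2 CPM in wild type replicates 1, 2 and 3. The summed level was highest in Mov10-/- replicate 2, lowest in wild type replicate 2, and did not overlap between genotypes. The same held for 7 Sertoli cell genes, which summed to 629, 571 and 544 CPM against 489, 438 and 516 CPM. It also held for 10 genes of smooth muscle and peritubular cells, at 763 to 999 CPM against 662 to 726 CPM. The sum of 6 Leydig cell genes overlapped between genotypes. For the 10 members the ratio of the group means was 2.22-fold, and 1.69-fold without Mov10-/- replicate 2. The mean was higher in Mov10-/- for all 10 genes, and in 4 of them, Myh2, Myh8, Tnnc2 and Mylpf, every Mov10-/- library was above every wild type library. This held for 11.4% of all genes tested. Of the 8 members above 1 CPM in at least 3 libraries, 0 were called by the quasi-likelihood test, and 3 (Myh8, Myh2 and Tnnc2) had an unadjusted p under 0.05 and were higher, as were 5.58% of all genes tested. DESeq2 called Myh8 and, of all genes, 0.257% higher. The exact test of edgeR called Myh8 and Myh2 and 0.346% of all genes higher, and limma voom called 0 members and 0.00988% of all genes. As these genes were chosen on this contrast, nothing is read from the counts. Myh2 was tested only because its Mov10-/- libraries exceeded the filter, and Ckm and Tnnt3 did not pass it.

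**Figure D1:**
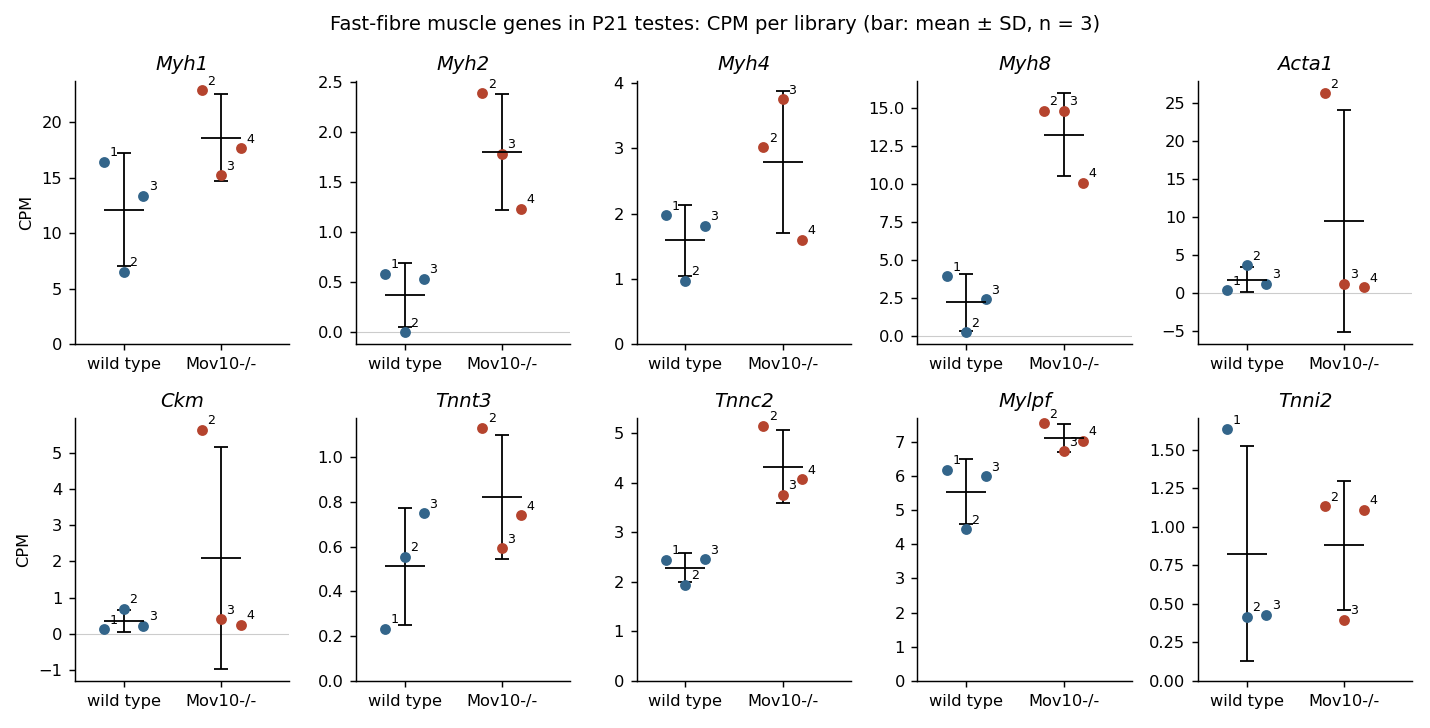
Normalised level (CPM, linear axis, own scale in each panel) of the 10 genes in the 3 wild type (blue) and 3 Mov10-/- (red) libraries, each point numbered by its replicate, with the mean and SD (n = 3). Acta1 and Ckm stand at 26.3 and 5.66 CPM in Mov10-/- replicate 2 and below 4 CPM in every other library, whereas the 3 Mov10-/- libraries of Myh8 all lie at or above 10.1 CPM.

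The sum hid members that behaved differently. The first pattern was that of Acta1 and Ckm. Acta1 had 209 reads in Mov10-/- replicate 2, 6 in replicate 3 and 6 in replicate 4, and 3, 26 and 11 reads in wild type replicates 1, 2 and 3. In CPM these were 26.3, 1.19 and 0.740 against 0.350, 3.61 and 1.18. The genotypes overlapped, and 1 library was 7.28-fold above the next. Ckm had 45, 2 and 2 reads in Mov10-/- and 1, 5 and 2 in wild type, or 5.66, 0.396 and 0.247 CPM against 0.117, 0.694 and 0.214 CPM. Its highest library was the same, 8.15-fold above the next, and for both genes the next was wild type replicate 2.

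Because of this library the group means of Acta1 were 9.40 ± 14.6 CPM in Mov10-/- against 1.71 ± 1.69 CPM in wild type (SD, n = 3). The fitted log2 fold change of Acta1 was 2.49 ± 1.34 (SE) over all libraries and -0.83 without Mov10-/- replicate 2. That of Ckm was 2.65 ± 1.11 and -0.09. For both genes a single library thus set the direction of the difference between genotypes. Among 17513 protein-coding genes with at least 10 reads, 38 were over 4-fold above every other library in Mov10-/- replicate 2, after adding 0.5 to each CPM. Acta1 ranked 12th and Ckm 23rd by this ratio, and no other member was over 2-fold. In wild type replicate 2, 243 genes were over 4-fold above every other library, and in each of the remaining libraries 0 to 8 were.

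The second pattern was that of Myh8. It had 118, 75 and 82 reads in Mov10-/- replicates 2, 3 and 4 and 34, 2 and 23 reads in wild type replicates 1, 2 and 3. Its level was 14.8, 14.8 and 10.1 CPM against 3.96, 0.278 and 2.46 CPM, so the genotypes did not overlap. The means were 13.3 ± 2.73 and 2.23 ± 1.85 CPM (SD, n = 3), and the log2 fold change was 2.55 ± 0.68 (SE). It remained between 2.04 and 3.21 when any library was left out. Myh2, at a far lower level, had 19, 9 and 10 reads in Mov10-/- and 5, 0 and 5 in wild type, with a log2 fold change of 2.17 ± 0.71. The means of Myh2 were 1.80 ± 0.578 and 0.373 ± 0.324 CPM, and the count of 0 in wild type replicate 2 allows up to 3 reads. Of the 50-base stretches of the main transcripts, 26.9% of those of Myh2 and 21.4% of those of Myh8 also occur in another gene, chiefly in one of the other heavy chains. For Myh1 and Myh4 these shares are 26.7% and 18.9%. Some reads of all these heavy chain genes could therefore not be placed uniquely.

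The other 6 members had log2 fold changes between 0.14 and 0.93. Mylpf had 60, 34 and 57 reads in Mov10-/- and 53, 32 and 56 in wild type. In CPM these were 7.54, 6.72 and 7.03 against 6.18, 4.44 and 5.99, and the log2 fold change was 0.37 ± 0.28. Mylpf was therefore nearly level in the library where Acta1 was highest, at 1.07-fold the next library. Tnnc2 stood at 5.15, 3.76 and 4.07 CPM against 2.45, 1.94 and 2.46 CPM, a log2 fold change of 0.93 ± 0.32. The groups of Tnnc2 did not overlap, and its difference was larger than that of Mylpf, at 0.82 without wild type replicate 2. Its exons share 592 bases with Ube2c on the other strand, and without a stated strand setting in the counting, reads there cannot be told apart.

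Myh1, the most abundant member by reads, had 182, 77 and 143 reads in Mov10-/- and 141, 47 and 125 in wild type. Its level was 22.9, 15.2 and 17.6 CPM against 16.4, 6.52 and 13.4 CPM. The genotypes overlapped, and the library that stood apart was wild type replicate 2, at the low end. The log2 fold change of Myh1 was 0.62 ± 0.36, and it fell to 0.32 without that library. Myh4 ranged from 1.60 to 3.76 CPM in Mov10-/- and from 0.972 to 1.98 CPM in wild type, with a log2 fold change of 0.79 ± 0.46, and its highest library was Mov10-/- replicate 3.

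The remaining troponins gave few reads. Tnnt3 had 9, 3 and 6 reads in Mov10-/- and 2, 4 and 7 in wild type, with a log2 fold change of 0.68 ± 0.68. Tnni2 had 9, 2 and 9 reads against 14, 3 and 4. Its highest library was wild type replicate 1, its log2 fold change was 0.14 ± 0.66, and the sign of this value changed when any of 4 libraries was left out. For both genes the difference between genotypes was within the spread of the libraries at this depth.

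**Figure D2:**
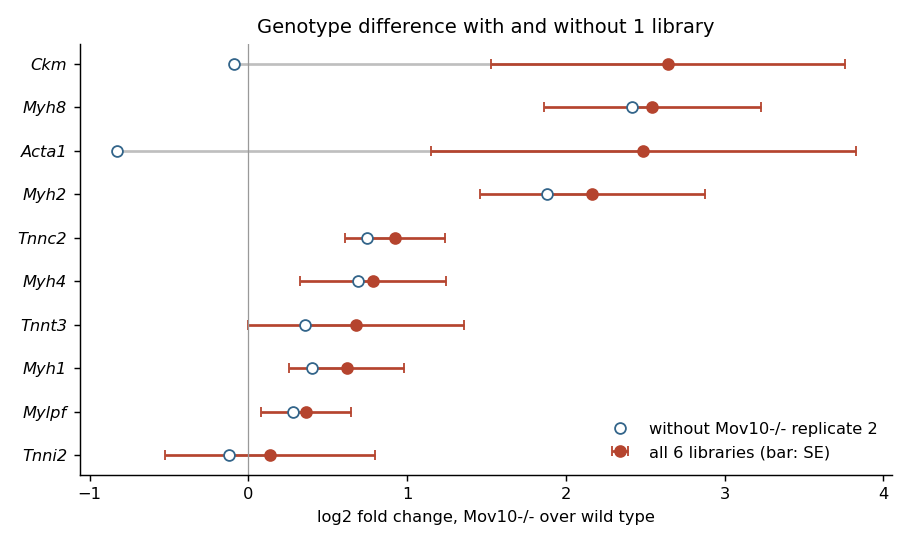
Log2 fold change of each gene, Mov10-/- over wild type, from the fit to all 6 libraries (filled, bar: SE) and from the fit without Mov10-/- replicate 2 (open); Ckm and Tnnt3 are from the fit without a filter on low counts, as are all open points. Acta1 moves from 2.49 to -0.83 and Ckm from 2.65 to -0.09, whereas Myh8 moves from 2.55 to 2.42.

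The make-up of the reads showed the same separation. Acta1 and Ckm took 35.5% of the reads of the 10 genes in Mov10-/- replicate 2 (95% Wilson interval 32.1% to 39.0%) and 22.1% in wild type replicate 2 (16.1% to 29.7%). In the other 4 libraries they took 1.37% to 4.76%, and the highest upper limit among these was 7.98%. The share of Myh8 was 16.5%, 30.5% and 22.7% in Mov10-/- and 11.7%, 1.43% and 8.42% in wild type. Per read of Mylpf there were 3.48 reads of Acta1 in Mov10-/- replicate 2 (interval 2.62 to 4.64) and 0.812 in wild type replicate 2 (0.487 to 1.36). In the others the ratio was 0.0566 to 0.196, with no upper limit above 0.410. The 10 genes did not keep a constant ratio across the libraries. These intervals cover counting error only.

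**Figure D3:**
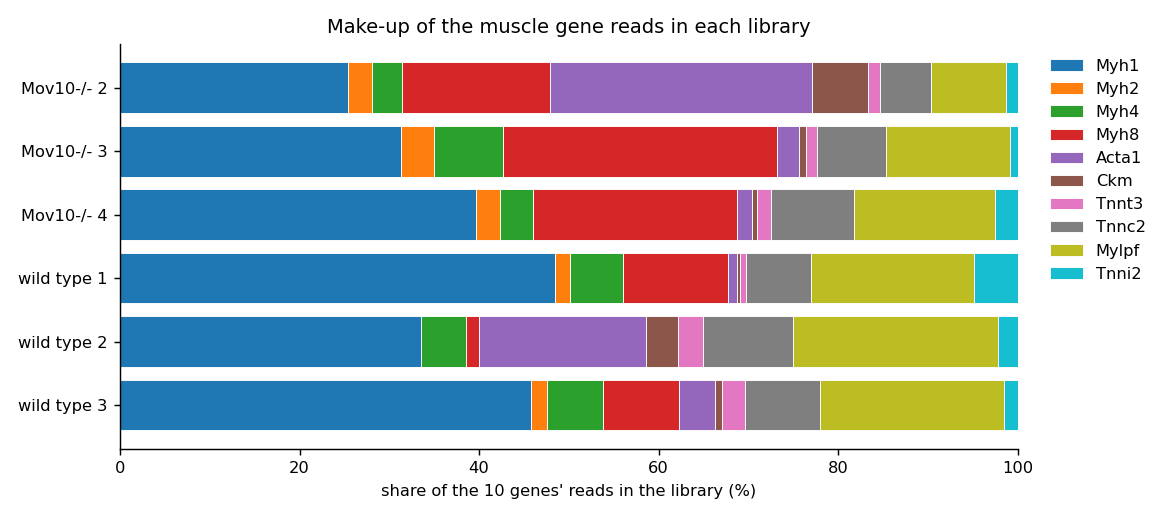
Share of the reads of the 10 genes taken by each gene (%, stacked bars to 100) in each library. Acta1 (purple) and Ckm (brown) together take 35.5% in Mov10-/- replicate 2 and 22.1% in wild type replicate 2, against at most 4.76% in the other 4 libraries, and Myh8 (red) takes its largest shares in the Mov10-/- libraries.

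Genes with a similar pattern were sought among protein-coding genes by the mean absolute difference of centred log2(CPM + 0.5) over the 6 libraries. Nearest to the sum of the 10 members were Trpv4, Mapt, Tesc, Igfbp3, Echdc2, Id1, Hlx, Plk3, Grip2 and Ntng2, at 0.13 to 0.18 log2 units. Trpv4, a cation channel, stood at 16.2, 11.9 and 11.7 CPM in the Mov10-/- libraries and at 8.39, 4.44 and 6.96 CPM in the others. None of these 10 is a gene of the contractile apparatus. Among the members themselves, Myh2 (0.22), Tnnc2 (0.24) and Myh1 (0.28) lay nearest to the sum and Acta1 (1.27) farthest.

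The same search from single members, chosen after their values were seen, gave different neighbours for each pattern. Nearest to Acta1 were Fxyd4, Bmp3, Kcnj16 and Akr1b7, with Ckm sixth. Akr1b7, an aldose reductase-like protein known from the vas deferens, stood at 89.9 CPM in Mov10-/- replicate 2, at 26.9 CPM in wild type replicate 2 and at 1.28 to 6.53 CPM in the others. Nearest to Ckm was P2rx1, an ATP-gated channel of smooth muscle, at 12.3 CPM in Mov10-/- replicate 2 and 0.986 to 2.22 CPM in the others. Nearest to Myh8 were Cfd and Retnla, both made by adipose tissue, with Cfd at 13.6, 11.7 and 8.14 CPM in Mov10-/- against 0.932, 0.694 and 2.14 CPM in wild type. Nearest to Mylpf were widely expressed genes such as Ubr2 (0.02 log2 units), a ubiquitin ligase.

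**Figure D4:**
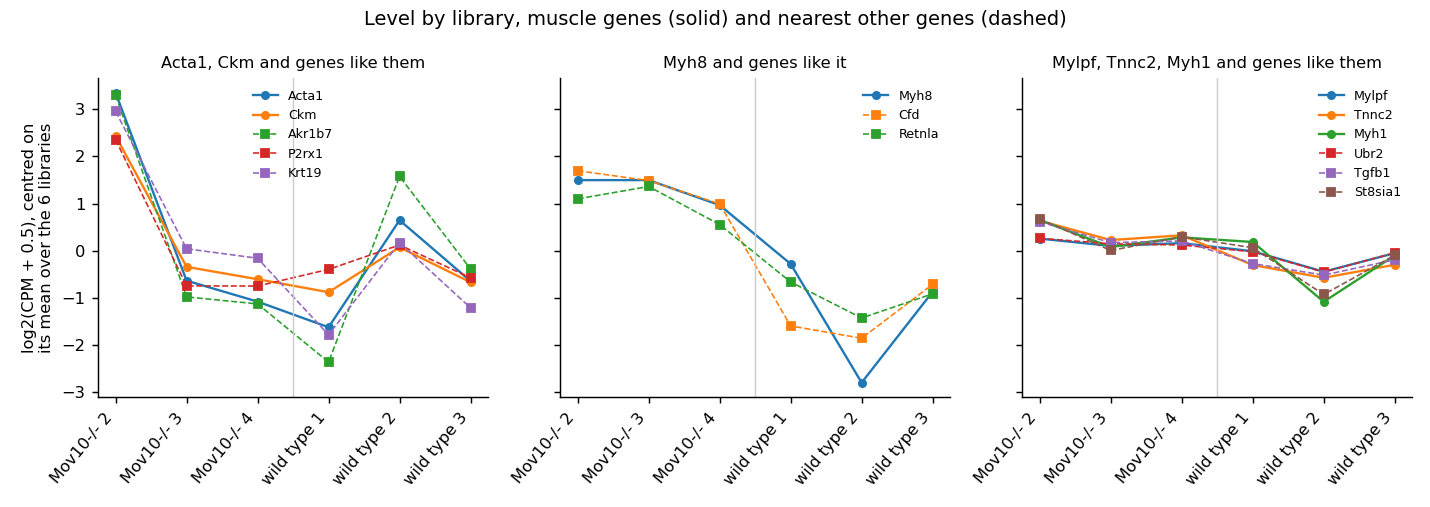
Level by library as log2(CPM + 0.5), centred on its mean over the 6 libraries, for members (solid) and other genes found near them (dashed). Acta1, Ckm, Akr1b7, P2rx1 and Krt19 peak in Mov10-/- replicate 2, Myh8, Cfd and Retnla are high in all 3 Mov10-/- libraries, and Mylpf, Tnnc2 and Myh1 vary over a narrower range, with their lowest value in wild type replicate 2.

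Other genes of skeletal muscle, 67 in 5 lists, were then examined. Of the 44 tested, 0 were called by the quasi-likelihood test in either direction, 5 had an unadjusted p under 0.05 and were higher, and 5 were lower. Over all genes tested, 5.58% had such a p and were higher, and 11.9% had one and were lower. DESeq2 called Chrne and Klhl41 lower, the exact test called these and Myom2 lower, and voom called 0. Over all genes DESeq2 called 4.98% lower and the exact test 5.09%, so these 2 and 3 of 44 were near the background. The median log2 fold change was 0.14, against 0.03 for all genes tested. Of the 67 genes, 18 were highest in Mov10-/- replicate 2, and 0 were over 2-fold above every other library there. Depth limited this comparison, since 12 of the 67 had 10 reads or fewer over the 6 libraries.

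The defining genes of skeletal muscle outside the members were at very different levels. Some, singled out after their values were seen, were near 0 in every library. Pvalb, the calcium buffer of fast fibres, had 1 to 4 reads, and Mb, which encodes myoglobin, had 0 to 3. Sln, a regulator of the calcium pump, had 0 to 2 reads and Myod1, the master factor of myogenesis, 0 to 1. Pygm, the muscle glycogen phosphorylase, was listed at 0 in all 6. In Mov10-/- replicate 2, Pvalb had 2 reads, Mb 3, Sln 0 and Myod1 0, while Acta1 had 209. Others in the same lists were well above 0 in all 6, such as Actn3 (46.0 to 76.2 CPM), Ttn, the giant spring of the sarcomere (30.0 to 56.3 CPM), and Neb, the ruler of the thin filament (14.7 to 33.9 CPM). Myl1, the fast essential light chain, had 16, 12 and 27 reads in Mov10-/- and 26, 7 and 15 in wild type. Of the 67 genes, 18 were highest in Mov10-/- replicate 2. Singled out from these by their values, Myoz2, Myoz1 and Tnni1 stood at 14.2, 7.04 and 6.03 CPM there. Their highest values in any other library were 8.39, 4.81 and 4.68 CPM.

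Among fast-fibre genes the most abundant were Eno3 and Pgam2, both enzymes of glycolysis, at mean levels of 82.0 and 76.7 CPM with log2 fold changes of 0.01 ± 0.14 and 0.03 ± 0.21. The third was Actn3, an α-actinin of the Z disc, at 60.0 CPM and 0.40 ± 0.13 (unadjusted p = 0.015, adjusted p = 0.19, quasi-likelihood test). Among slow-fibre genes the most abundant were Casq2 (40.6 CPM), Mybpc1 (13.4 CPM) and Ckmt2 (10.4 CPM), with log2 fold changes of 0.38, 0.33 and -0.92, and 0 of the 7 tested had an unadjusted p under 0.05. Tpm2, Ttn and Smpx led the sarcomere list at 47.5, 44.7 and 42.4 CPM. Tpm2, a tropomyosin, had a log2 fold change of 0.45 ± 0.15 (adjusted p = 0.19) and Actn2, another α-actinin, one of 0.56 ± 0.22 (adjusted p = 0.25). Myom2 and Klhl41, of the same list, had a negative log2 fold change, of -1.80 and -2.13, with adjusted p of 0.16 and 0.17.

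Of the 10 genes tested from the junctions of the fibre (between membrane and calcium store, and between nerve and muscle), 0 had an unadjusted p under 0.05 and were higher, and 3 (Chrne, Trdn and Cacna1s) were lower. The shares over all genes tested were 5.58% higher and 11.9% lower. Jph2, Ryr1 and Cacna1s were the most abundant of the junction genes at 20.2, 20.0 and 14.4 CPM. Jph2, which ties the membrane to the store, stood at 21.9, 23.1 and 22.3 CPM in Mov10-/- against 16.2, 19.0 and 18.8 CPM in wild type, without overlap (log2 fold change 0.33 ± 0.19, adjusted p = 0.40). Cacna1s, the voltage sensor of muscle, stood at 10.2, 11.1 and 8.51 CPM in Mov10-/- against 21.7, 24.3 and 10.7 CPM in wild type. Chrne, a subunit of the acetylcholine receptor, stood at 2.64, 5.54 and 6.04 CPM against 13.8, 25.5 and 10.9 CPM. The adjusted p were 0.23 and 0.15, and that of Trdn, a protein of the calcium store, was 0.22. For these 3, and for Myom2 and Klhl41, the highest library was wild type replicate 2, which also had the highest summed level of 10 spermatid genes, at 727 CPM against 157 and 264 CPM in the other wild type and 41.1 to 131 CPM in the Mov10-/- libraries. Whether germ cell stage took part in these differences was not tested, and in bulk testis RNA fewer cells of a type and less RNA per cell cannot be told apart.

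Among developmental genes Myl4 (26.8 CPM), Myh13 (15.5 CPM) and Myh3 (5.33 CPM) were the most abundant. Myh13, the heavy chain of eye muscles and the next myosin gene after Myh8 on chromosome 11 (chr11:67321658-67371586), resembled Myh8. It stood at 21.5, 22.2 and 20.5 CPM in Mov10-/- and at 4.08, 12.4 and 12.5 CPM in wild type, with a log2 fold change of 1.16 ± 0.40 (unadjusted p = 0.020, adjusted p = 0.21). Its Mov10-/- libraries were all higher, but the low value was that of wild type replicate 1 and not, as for Myh8, that of replicate 2. Myog, a myogenic factor, had a log2 fold change of 1.20 ± 0.47 (adjusted p = 0.25) at a mean below 2 CPM in each genotype. Myh3, the embryonic heavy chain, had one of 0.17.

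Some genes of other tissues that surround the testis had their highest level in the same library as Acta1 and Ckm. So did 5 of 7 Sertoli cell genes and 3 of 6 Leydig cell genes, which belong to the testis itself. Of these, 0 were over 2-fold above every other library there. The share of all genes that were highest in this library was not counted, for these or the other lists. Of 6 mesothelial genes, 5 did, but only Krt19 was over 2-fold above every other library there, at 31.7 CPM against 0.699 to 4.16 CPM. Upk3b, Msln and Wt1, also of this list, were instead higher in all 3 Mov10-/- libraries than in any wild type library, as were 11.4% of all genes tested. Upk3b stood at 16.3, 11.9 and 7.40 CPM against 0.699, 4.44 and 4.71 CPM. Of the 6, 4 had an unadjusted p under 0.05 and were higher, against 5.58% of all genes tested, and 0 were called. Without Mov10-/- replicate 2, 0 of the 6 had such a p and were higher, against 628 of 19889 genes tested. The mesothelial list summed to 159.8 to 229.7 CPM in Mov10-/- and 112 to 138 CPM in wild type. Most of each sum was Wt1 alone, at 131, 124 and 115 CPM against 100, 80.0 and 108 CPM. Whether Wt1 reads came from mesothelium or from cells of the testis itself was not tested. Of 8 epididymal genes, Spink8, Adam7 and Rnase9 were over 2-fold above every other library in Mov10-/- replicate 2, at 35.7, 20.5 and 13.7 CPM. Lcn8 and Lcn9 were at 0 in all 6 libraries, and Defb21 had 1 read in 1 library. The epididymal list summed to 75.9, 15.0 and 9.61 CPM in Mov10-/- against 28.6, 66.3 and 38.8 CPM in wild type. Rnase10 and Cst8 were instead highest in wild type replicate 2, at 23.0 and 33.9 CPM, and Rnase10 was at 0.126 CPM in Mov10-/- replicate 2.

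Genes of smooth muscle were also high in that library, but by less. Of 10 genes of smooth muscle and peritubular cells, 8 were highest in Mov10-/- replicate 2, and Synpo2 stood at 29.9 CPM against 7.92 to 9.44 CPM in the others. Their summed level was 999, 826 and 763 CPM in Mov10-/- against 726, 662 and 703 CPM in wild type. Myh11 and Mylk, the most abundant, were at 1.20-fold and 1.14-fold the next library. Of 8 cardiac genes, which share several isoforms with skeletal muscle, 1 was highest in Mov10-/- replicate 2. The summed level was 111 to 119 CPM in Mov10-/- against 78.7 to 102 CPM in wild type, and Nppa was at 0 in all libraries. The part of epididymis, vas deferens, mesothelium or smooth muscle in the level of Acta1 and Ckm was not tested.

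Some adipocyte genes were higher in all 3 Mov10-/- libraries, as Myh8 was, but 0 of the 13 tested were called by the quasi-likelihood test. Their summed level over 14 genes was 268, 209 and 210 CPM in Mov10-/- against 150, 227 and 142 CPM in wild type, where Lipe, an enzyme that spermatids also use, gave 142 CPM of the value in replicate 2. With an unadjusted p under 0.05, 5 of the 13 (Cfd, Car3, Cidec, Fabp4 and Lpl) were higher and 0 lower, against 5.58% and 11.9% of all genes tested. The lowest adjusted p was that of Car3, at 0.082. Car3 stood at 39.8, 24.5 and 30.1 CPM in Mov10-/- against 5.01, 6.66 and 7.70 CPM in wild type. The groups did not overlap for 6 of the 13, all higher in Mov10-/-, as held for 11.4% of all genes tested. Adipoq, a defining gene of fat cells, overlapped between genotypes at 7.16, 5.54 and 4.81 CPM against 2.56, 8.61 and 2.14 CPM. The part of fat around the testis in the level of Myh8 was not tested.

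**Figure D5:**
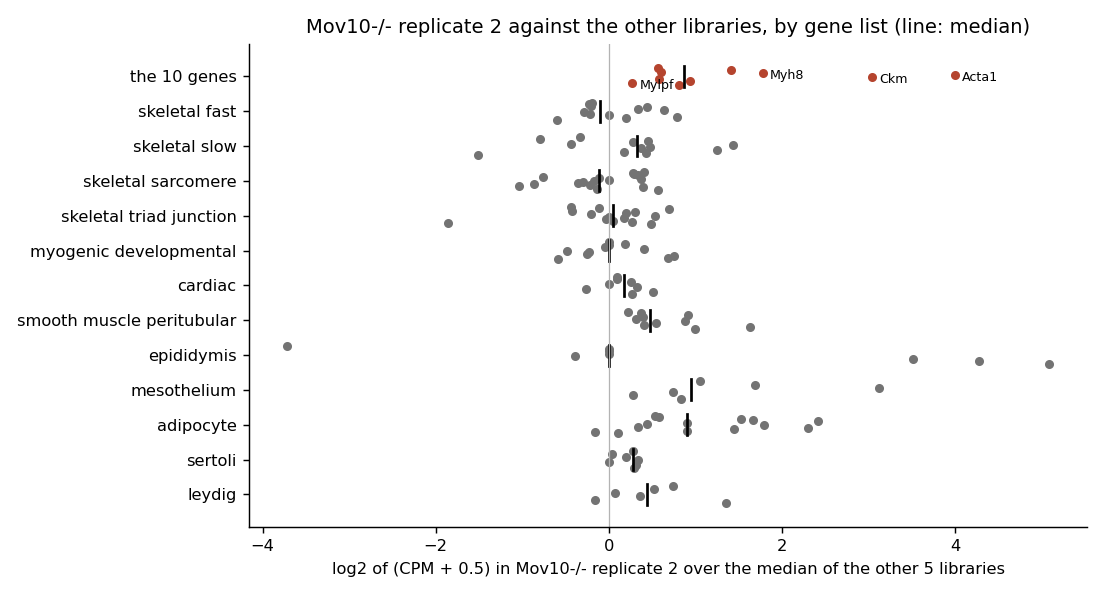
Log2 of CPM + 0.5 in Mov10-/- replicate 2 over that of the median of the other 5 libraries, 1 point per gene by list, with the median of each list as a line. Acta1 and Ckm (3.04) stand beyond all 67 other skeletal muscle genes, while 3 epididymal genes and Krt19 of the mesothelial list lie in the same range.

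No member was seen in the CLIP-seq libraries. CLIP-seq replicates 1, 2 and 3 differed by less than the sampling noise (χ2 over its degrees of freedom of 0.223 to 0.237 across genes, against 1.62 to 1.93 for each of them with replicate 5) and were counted as 1 sample, which leaves 2. The 4 libraries had only 3404 to 4934 reads on genes, and the 10 members had 0 reads in each. Across these libraries 99.5% to 99.6% of reads did not align, and 0.026% to 0.052% fell on genes. A count of 0 allows a level of up to 608 to 881 RPM (reads scaled to the reads on genes) there. This is far above the 22.9 CPM that Myh1 reached in RNA-seq. Binding of MOV10 to these transcripts was therefore not detectable with so few reads on genes. The 67 other muscle genes had 8 CLIP-seq reads in all.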

How the data were processed

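RNA-seq of 6 pairs of P21 testes and MOV10 CLIP-seq of wild type testes were used. For every library the authors deposited 1 table of raw read counts over Ensembl genes; per the labels and methods these came from stranded mRNA libraries (RNA-seq), STAR on mm10 and HTSeq, and the strand setting of the counting is not given in the sources used here. Rows outside genes were left out of totals; RNA-seq reads without a gene feature were 10.0% to 18.7% of all reads and those with several alignments 4.07% to 7.56%. Names, exon lengths and coordinates came from a GENCODE annotation of the same build (55240 of 55421 genes matched), and promoters from RefSeq.

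The members and gene lists were chosen with earlier results of these data known. Genes above 1 CPM in at least 3 of 6 RNA-seq libraries were tested with edgeR 4.0.16 (TMM, quasi-likelihood, Benjamini-Hochberg over 20240 genes; R 4.3.3); the test was tested on simulated data. Fold changes of Ckm and Tnnt3 came from the fit without the filter. DESeq2 1.42.0, the edgeR exact test, limma 3.58.1 (voom), other scalings, no filter, a replicate block and each library left out were alternatives. Named were all members, Mov10, the 3 most abundant genes of each muscle list, and those with an unadjusted p under 0.05. Defining muscle genes at low counts, genes near single members and genes of other tissues were partly chosen after their values were seen. So were Myoz1, Myoz2 and Tnni1. P-values set the difference between genotypes against the spread among the 3 libraries of a genotype, each from 1 mouse. Counting error sets the precision of low counts, with 1 read at 0.108 to 0.197 CPM.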

Additional observations from a re-analysis of the deposited data

How the results depend on the processing

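The summed level of the 10 members, Mov10-/- over wild type, was 1.15 on the log2 scale, 1.15 with DESeq2's size factors, 1.16 with library totals, 1.00 without Acta1, 0.99 as a geometric mean and, chosen after seeing the data, 0.96 without Acta1 and Ckm. Leaving out 1 library gave 0.76 to 1.33. Of 100 values for single members under the alternatives, 92 moved by less than 1 SD. The sign changed in 6: without Mov10-/- replicate 2, Acta1 was at -0.83, Ckm at -0.09 and Tnni2 at -0.12, and Tnni2 also changed without Mov10-/- replicate 4 (-0.04), wild type replicate 2 (-0.16) and wild type replicate 3 (-0.20).

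Over all genes, 0 were called higher and 1 lower. Library totals gave 3 and 3, no filter 5 and 5, DESeq2 51 and 988, the exact test 70 and 1031 and voom 1 and 1. Leaving out 1 library gave 0 higher and 0 to 1 lower; Mov10 was not called without Mov10-/- replicate 3 or replicate 4. In the wider muscle lists 0 were called in either direction, also with any library left out (0 to 0), but DESeq2 called 2 lower and the exact test 3. The causes were not tested. The replicate block gave 36 higher and 148 lower, and among the members called Myh8 (log2 fold change 3.84). The labels do not say whether an equal number pairs 2 libraries. The deviations of replicates 2 and 3 correlated at -0.46 and -0.34 between genotypes, and those of unlike numbers at -0.24 to 0.45. The block was therefore not used, but so few libraries cannot exclude a shared litter or batch. The depth of 5083407 to 9230540 reads leaves Ckm, Tnnt3, Tnni2 and Myh2 with few reads, and 3 libraries a group limit every comparison.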
